A study of Mus musculus with 8 samples.

Results

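Genes of glutathione and thioredoxin chemistry and of the enzymes that remove superoxide and peroxides were examined in mouse brown adipose tissue. Tissue of mice with a Cre-driven knockout of Lsd1, a histone demethylase (gene symbol Kdm1a), was compared with control tissue. The 62 members were picked by a rule on symbols among 23372 genes of the count table, with earlier results of these data known. The symbols were those of glutathione transferases, glutathione peroxidases, peroxiredoxins, thioredoxins and their reductases, superoxide dismutases, glutaredoxins and glutathione-synthesizing enzymes, with Nqo1, the heme oxygenases, Srxn1, Nfe2l2 and Keap1. Where a symbol had several transcript rows, the row with the highest total stood for the gene. Of the 62 members, 53 passed the filter on low counts and were tested, and 9 did not.

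The tissue came from mice 10 weeks old of strain C57BL/6 N, and both groups carried floxed Lsd1 alleles. The 4 knockout libraries (512, 513, 515 and 516) were from mice that also carried Cre recombinase driven by the promoter of Ucp1, a gene of brown adipocytes. The 4 control libraries (511, 514, 517 and 518) were from floxed mice without mention of Cre, so loss of Lsd1 and presence of Cre cannot be told apart. Kdm1a itself was at 35.4 ± 1.52 CPM in controls and 13.1 ± 0.711 CPM in knockouts (SD, n = 4 each), a log2 fold change of -1.43 (edgeR adjusted p = 2.66e-05). Its transcript in the whole tissue was thus lowered but not absent. CPM is the count scaled to a common library size with edgeR's TMM factors. Neither cage, litter nor sex is stated for the numbered libraries, so each p-value speaks only for the spread among these 8 samples, since the labels do not say that each came from a separate mouse. Library totals lay between 33011022 and 38756920 counts over all transcript rows.

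Glutathione is a small thiol made in a pair of steps by glutamate-cysteine ligase (Gclc and Gclm) and glutathione synthetase (Gss), and glutathione reductase (Gsr) returns its oxidized form to the thiol with NADPH. Thioredoxins do similar work on proteins and are kept reduced by thioredoxin reductases. Superoxide dismutases turn superoxide into hydrogen peroxide, which glutathione peroxidases and peroxiredoxins remove, and glutathione transferases attach glutathione to lipid peroxidation products and foreign compounds. The transcription factor Nrf2 (gene Nfe2l2), held back by Keap1, drives many of these genes through a short DNA element, and brown fat mitochondria, with their high respiration, are a site where the mitochondrial forms act.

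Of the 53 tested members, the quasi-likelihood test of edgeR called 7 higher and 9 lower after knockout at an adjusted p under 0.05, and 37 did not pass. Over all 14178 genes tested, 34.4% passed, 15.4% as higher and 18.9% as lower, so the members' share of 30.2% was near the background. The members' median log2 fold change was -0.0791, beside -0.0123 for all genes tested. The genes that rose were Gstm5, Gstm6, Gstt1, Gstt3, Mgst2, Nqo1 and Prdx4, and those that fell were Gclm, Glrx5, Gsto1, Gstz1, Prdx3, Prdx6, Sod2, Txn2 and Txnrd2. Changes of at least 2-fold were seen in 5 of the higher genes (5.95% of all tested genes were called and at least 2-fold higher) and in 1 of the lower, Gstz1 (0.938% for all tested genes). Control and knockout ranges were apart for 18 of the 53 members, where 35.5% of all tested genes did not overlap. How many members rose or fell depended on the scaling: with library sizes alone, 13 members were higher and 5 lower, and with upper quartile factors 9 were higher and 6 lower. Those scalings moved the median of all genes to 0.186 and 0.0903.

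**Figure D1:**
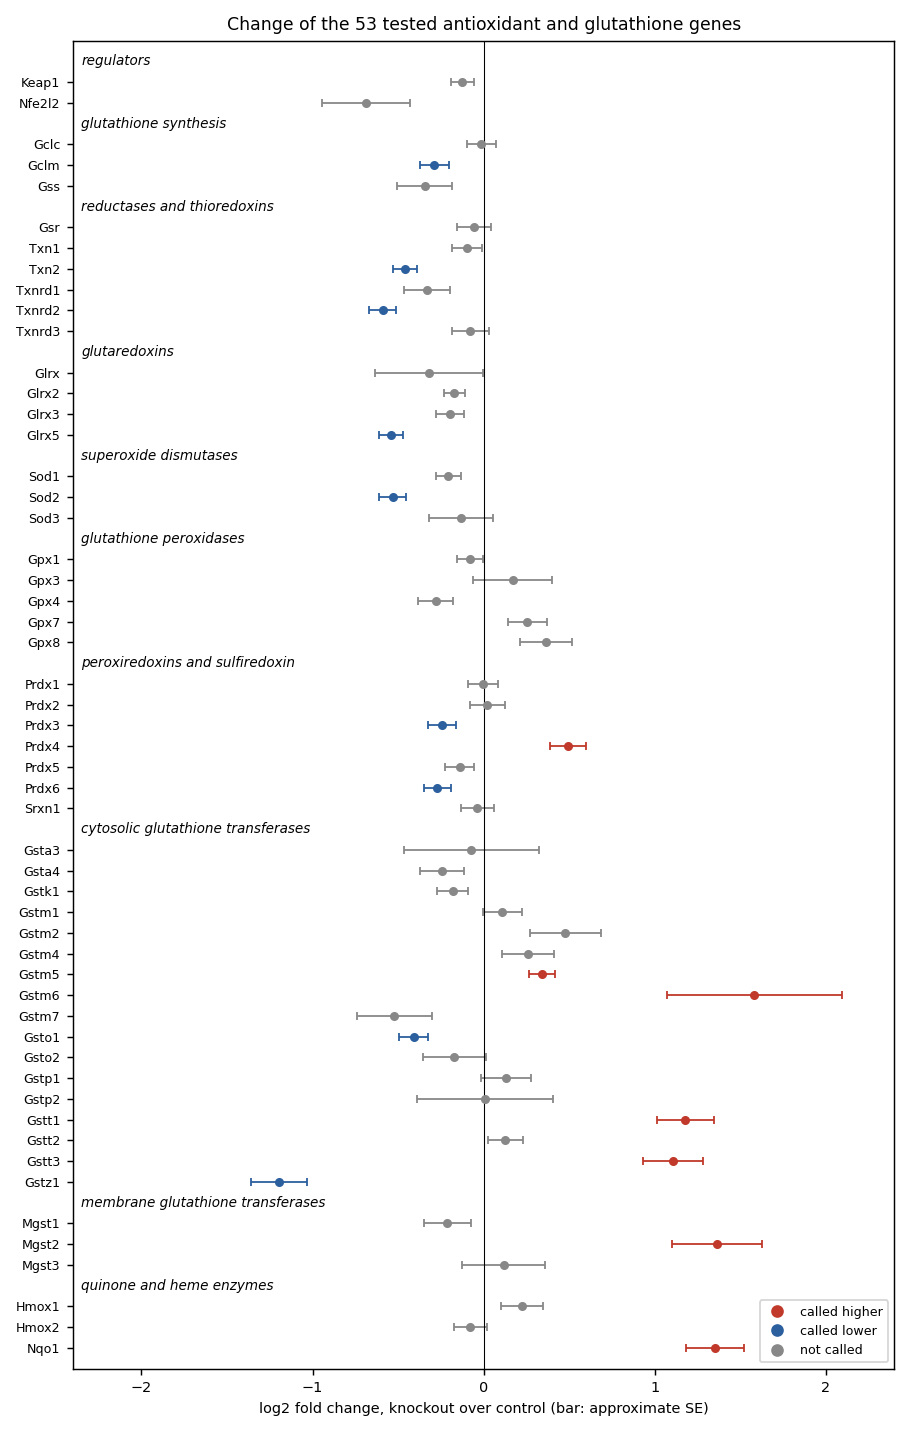
Log2 fold change of knockout over control for the 53 tested members, grouped by role, with the approximate standard error as a bar and the colour giving the call. Rises of more than 1 were confined, among called members, to Gstm6, Mgst2, Nqo1, Gstt1 and Gstt3, while the called falls other than Gstz1 lay between -0.59 and -0.24.

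Counts of a whole tissue cannot tell fewer cells of a type from less RNA per cell. Markers of other cell types differed between libraries and, in part, with the groups. The summed level of 11 skeletal muscle markers was 254.7 to 4980 CPM in controls and 5934 to 12740 CPM in knockouts. Of the 11, 2 were called higher (18.2%), near the 15.4% of all genes called higher. Control 514 held the 254.7 CPM, beside 3050 to 4980 CPM in the other controls, and the count of muscle markers called moved with it. It was 10 of 11 without control 514, 11 of 11 by limma-voom with sample weights, and 0 of 11 without control 511, control 517, knockout 512, knockout 513 or knockout 515, with median log2 fold changes of 1.11 to 2.43 in these fits. The sum of 9 macrophage markers was 115 to 210 CPM in controls and 205 to 311 CPM in knockouts, ranges that touched through control 517 and knockout 512. Of the 9, 4 were called higher (44.4%, beside 15.4% of all genes). That count was 1 without knockout 515 or 516, 2 without control 518 or knockout 513, and 8 with library sizes alone. For 6 brown adipocyte markers the sum was 17250 to 23530 CPM and 11370 to 12920 CPM, with 3 of 6 called lower, Ucp1, Fabp4 and Elovl3, so the tissue's defining markers were present in every library. For erythroid (783 to 1207 and 1051 to 1545 CPM), endothelial (968 to 1177 and 996 to 1161 CPM) and fibroblast markers (845 to 1790 and 1520 to 2260 CPM) the ranges of the groups overlapped as well. Of 6 liver markers, Ttr was at 0 in every library and Cyp2e1 was the 1 tested. The part of these shifts in the changes of the members was not tested.

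Compared per kilobase of transcript, the members spanned a wide range in control tissue. Gpx3, the secreted glutathione peroxidase, stood highest with 1866 ± 663 CPM per kb (SD, n = 4). It was followed by Prdx5, a peroxiredoxin of mitochondria, peroxisomes and cytosol, at 640 ± 65.3 CPM per kb, and Mgst1, a glutathione transferase of membranes, at 621 ± 74.5 CPM per kb, and those 2 values lay within each other's spread. Next came the mitochondrial thioredoxin Txn2 (362 ± 19.5 CPM per kb), the copper-zinc dismutase Sod1 (342 ± 23.0), the mitochondrial peroxiredoxin Prdx3 (329.9 ± 10.3) and the selenoenzyme Gpx1 (306 ± 26.4). In that last order neighbouring means differed by less than the larger SD of the pair but by more than the smaller. At the low end were Nqo1, a quinone reductase, with 1.56 ± 0.293 CPM per kb, Gstm6 with 1.04 ± 0.586 CPM per kb and, lowest of the tested members, Gstp2 with 0.592 ± 0.294 CPM per kb. The 9 untested members, Gpx2, Gpx2-ps1, Gpx5, Gpx6, Gsta1, Gsta2, Gstm3, Gstt4 and Prdx6b, had at most 16 counts in any library, and Gpx2 and Gpx6 had no count in any.

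**Figure D2:**
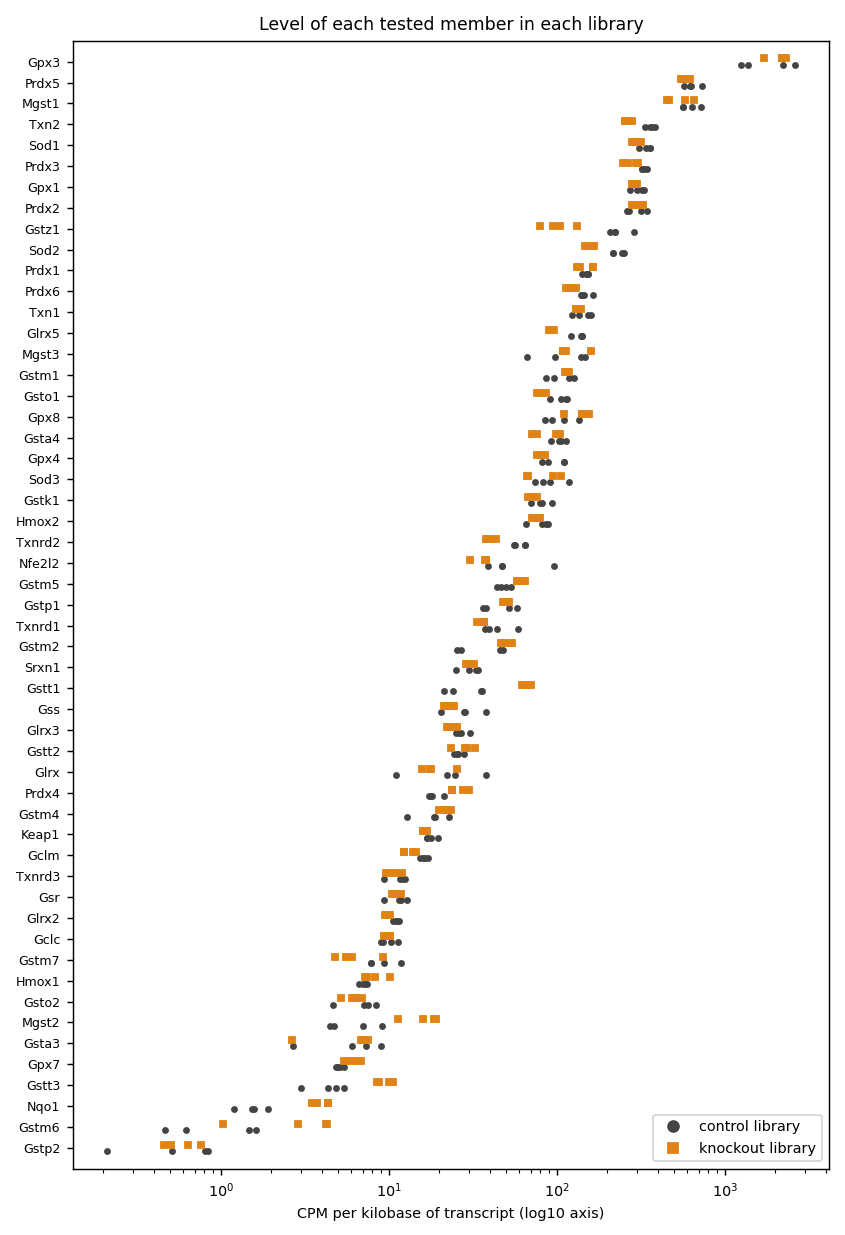
Level of each tested member in each library, as CPM per kilobase of transcript on a log10 axis, with circles for control and squares for knockout libraries. Gpx3 lies above all others, and the knockout squares stand clear of the control circles for members such as Gstz1, Sod2, Txn2, Gstt1, Gstt3 and Nqo1.

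The regulators themselves did not pass the test. Nfe2l2 (chromosome 2, 75675519 to 75704641, mm10) had 96.4, 117, 117 and 238 CPM in controls 511, 514, 517 and 518, and 74.4, 93.3, 93.1 and 92.0 CPM in knockouts 512, 513, 515 and 516. The groups did not overlap, and control 518 stood far above the other controls. The log2 fold change was -0.68 (adjusted p = 0.0665, SE 0.257), and without control 518 it was -0.29 (edgeR adjusted p = 0.0617). The gene was called lower without control 511 (-0.83, edgeR adjusted p = 0.0328). DESeq2 called it lower too (adjusted p = 0.0251), as did the authors' deposited table (log2 fold change -0.70, FDR 0.0171). Keap1 (chromosome 9, 21229730 to 21239332), which marks Nrf2 for degradation, was at 79.5 ± 6.09 CPM in controls and 73.0 ± 2.12 CPM in knockouts (SD, n = 4 each), a log2 fold change of -0.12 (edgeR adjusted p = 0.19), and 10.9% of its exon bases lie opposite Gm16754. In a list of 11 other Nrf2 regulators, 3 were higher and 1 lower, with a median of 0.0011. The share called was 36.4%, near the 34.4% of all genes. The higher ones were the related factor Nfe2l3 (log2 fold change 1.77), the small Maf partner gene Mafk (0.61) and the autophagy receptor gene Sqstm1 (0.40), and the lower was Cul3 (-0.39), the ligase scaffold that works with Keap1. The call of Sqstm1 ended without knockout 515 (edgeR adjusted p = 0.0507), and that of Cul3 with library sizes alone (0.0776). Mrnip lies opposite 20.5% of the exon bases of Sqstm1.

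The antioxidant response element that Nrf2 binds has the core TGACNNNGC, and promoters of the members were searched for it on both strands. The windows, from RefSeq (GRCm38.p6), run from 250 bases before to 50 after an annotated start. Of the 62 members, 53 had a window, with 73 windows in all. A gene counted as holding the core if any of its windows did. The number of windows per gene was not matched between the members and all genes. The core was found in 10 of the 53 members (18.9%), beside 14.0% of 27025 genes with a window of the same length. It was found in 1 of 7 higher members with a window, Gstm5, in 1 of 8 lower members, Gclm, and in 8 of 31 members that were not called (25.8%): Gsta3, Gstm7, Mgst1, Nfe2l2, Prdx1, Sod1, Srxn1 and Txnrd1. No other motif was searched, and the same letters can overlap AP-1 sites. The 250 bases before the start of Gclm (chr3:122245307-122245556, plus strand), Gstm5 (chr3:107895604-107895853, plus strand) and Nqo1 (chr8:107403206-107403455, minus strand), all GRCm38, are shown 5′ to 3′ because they are the fallen and the risen member with a match and a risen member without one. Capitals mark the match, which in Gclm reads as the reverse complement, GCNNNGTCA.
Gclm: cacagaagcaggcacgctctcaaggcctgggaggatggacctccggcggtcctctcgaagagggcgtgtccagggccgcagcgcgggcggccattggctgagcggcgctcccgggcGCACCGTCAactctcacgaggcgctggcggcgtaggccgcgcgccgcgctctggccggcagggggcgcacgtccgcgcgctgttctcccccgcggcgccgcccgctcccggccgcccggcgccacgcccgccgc
Gstm5: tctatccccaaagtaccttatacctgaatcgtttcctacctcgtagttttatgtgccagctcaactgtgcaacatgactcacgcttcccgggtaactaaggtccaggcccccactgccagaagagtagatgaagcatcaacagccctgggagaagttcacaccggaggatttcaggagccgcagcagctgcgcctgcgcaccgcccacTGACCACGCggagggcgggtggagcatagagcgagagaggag
Nqo1: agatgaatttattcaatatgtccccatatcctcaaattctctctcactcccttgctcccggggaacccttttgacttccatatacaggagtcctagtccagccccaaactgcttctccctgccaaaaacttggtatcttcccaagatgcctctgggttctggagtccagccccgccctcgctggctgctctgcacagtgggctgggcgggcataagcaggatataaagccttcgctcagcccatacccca
The match in Gstm5 begins 42 bases before the annotated start and that in Gclm 134 bases before it. The transcript counted for Gclm starts further downstream than the start used for its window. The Nqo1 window holds no match, which says only that these letters are not in those 300 bases.

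In glutathione synthesis, 1 of 3 genes fell, a share of 33.3% called beside 34.4% of all genes. Gclm, the modifier subunit of glutamate-cysteine ligase (chromosome 3, 122245592 to 122266648), had 24.0, 22.4, 24.9 and 23.3 CPM in controls and 21.2, 18.1, 17.8 and 20.4 CPM in knockouts, so every knockout library was below every control. Its log2 fold change was -0.29 (adjusted p = 0.0281, SE 0.0848). That call ended with upper quartile factors (edgeR adjusted p = 0.123), with library sizes alone (0.415), and without control 511 (0.0508), control 517 (0.0627), control 518 (0.0569), knockout 513 (0.0828) or knockout 515 (0.0803). Its catalytic partner Gclc had 30.6 to 38.8 CPM in controls and 31.8 to 34.5 CPM in knockouts, with a log2 fold change of -0.01 (adjusted p = 0.919, SE 0.0867), and the ranges overlapped fully. Gss, which adds glycine, had 37.3, 52.1, 51.4 and 69.9 CPM in controls and 39.1 to 44.7 CPM in knockouts (log2 fold change -0.34, edgeR adjusted p = 0.126). Without control 511 Gss was called lower (-0.48, edgeR adjusted p = 0.0161), and antisense transcripts Gssos1 and Gssos2 lie opposite 10.5% and 12.6% of its exon bases.

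Among reductases and thioredoxins, the mitochondrial pair fell and the cytosolic pair was not called. With 2 of 6 genes called, the share of 33.3% was near the 34.4% of all genes. Txnrd2, the mitochondrial thioredoxin reductase (chromosome 16, 18426417 to 18479073), had 120, 104, 121 and 106 CPM in controls and 75.7, 71.3, 71.5 and 81.5 CPM in knockouts. No knockout library reached the lowest control, and the log2 fold change was -0.59 (adjusted p = 0.00084, SE 0.0777), or 1.51-fold lower. Txn2, mitochondrial thioredoxin (chromosome 15, 77915051 to 77928994), had 429, 460, 467 and 490 CPM in controls against 358, 323, 337 and 324 CPM in knockouts. Again the groups were apart, with a log2 fold change of -0.46 (adjusted p = 0.00153, SE 0.0693). The cytosolic reductase Txnrd1 had 126, 134, 150 and 199 CPM in controls and 113 to 125 CPM in knockouts, ranges that did not overlap. Its log2 fold change of -0.33 (SE 0.133) did not pass (edgeR adjusted p = 0.0818), but without control 511 it did (-0.42, edgeR adjusted p = 0.0384). Without control 518, the highest library, it was -0.15. Cytosolic thioredoxin Txn1 (log2 fold change -0.10, adjusted p = 0.406, SE 0.0864), Txnrd3, a form known from testis (-0.08), and glutathione reductase Gsr (-0.05, SE 0.0992) were not called. Whether the mitochondrial and cytosolic forms differed in response was not tested.

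Glutaredoxins are small proteins that use glutathione, and 1 of 4 fell. Glrx5, which passes iron-sulfur clusters inside mitochondria (chromosome 12, 105032689 to 105040910), had 112, 130, 129 and 130 CPM in controls and 89.5, 83.1, 86.0 and 85.7 CPM in knockouts. Control 511 was the lowest control and still above every knockout, and the log2 fold change was -0.54 (adjusted p = 0.000686, SE 0.0676). Glrx2, the other mitochondrial glutaredoxin, had 38.0 to 41.6 CPM in controls and 34.2 to 36.6 CPM in knockouts, ranges that did not overlap. It narrowly missed the threshold (log2 fold change -0.17, adjusted p = 0.0533, SE 0.0606). The cytosolic Glrx3, an iron-sulfur protein (-0.20, SE 0.0803), and Glrx (-0.32, SE 0.314) were not called, and Glrx ranged from 14.5 to 49.8 CPM among controls alone.

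Of the 3 superoxide dismutases, 1 fell, a share of 33.3% called beside 34.4% of all genes. Sod2, the manganese enzyme of the mitochondrial matrix (chromosome 17, 13007839 to 13018119), had 827, 824, 958 and 934 CPM in controls and 565, 626, 620 and 638 CPM in knockouts. The highest knockout was well below the lowest control, and the gene was 1.45-fold lower (log2 fold change -0.53, adjusted p = 0.00154, SE 0.0803). Sod1, the cytosolic copper-zinc form, had 228, 217, 229 and 197 CPM in controls and 191, 178, 184 and 202 CPM in knockouts. Its ranges overlapped through control 518 and knockout 516, and its log2 fold change was -0.21 (adjusted p = 0.0538, SE 0.0726). DESeq2 called Sod1 lower (adjusted p = 0.031), as did limma-voom with sample weights (adjusted p = 0.0239) and the edgeR test without control 518 (adjusted p = 0.0347). Sod3, the extracellular form, varied from 136 to 217 CPM among knockouts and from 152 to 240 CPM among controls (log2 fold change -0.13, SE 0.187).

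Of the glutathione peroxidases 5 were tested, and 0 were called by edgeR, beside 34.4% of all genes. At an unadjusted p under 0.05, Gpx4 and Gpx8 passed, with Gpx7 at 0.0506. DESeq2 called 0 of the 5, and limma-voom with sample weights called Gpx4 lower and Gpx8 higher. Gpx3 had 1872, 2078, 3344 and 3946 CPM in controls and 2565, 3307, 3282 and 3484 CPM in knockouts. Controls 511 and 514 were below all knockouts and control 518 above them all, so the log2 fold change of 0.17 had a standard error of 0.232 (edgeR adjusted p = 0.603). Gpx1, the general cytosolic enzyme, had 283 to 343 CPM in controls and 292 to 315 CPM in knockouts (-0.08, SE 0.0767). Gpx4, which reduces lipid peroxides in membranes and guards against ferroptosis, had 102, 102, 81.8 and 75.8 CPM in controls and 70.7 to 78.7 CPM in knockouts. Its log2 fold change was -0.28 (adjusted p = 0.0649, SE 0.105), and without control 518 it was called lower (-0.33, edgeR adjusted p = 0.0231). Gpx7 and Gpx8, enzymes of the endoplasmic reticulum, had log2 fold changes of 0.26 (adjusted p = 0.11, SE 0.114) and 0.37 (adjusted p = 0.089, SE 0.151). Without control 518 Gpx8 was called higher (0.52, edgeR adjusted p = 0.0177).

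The peroxiredoxins divided. Prdx4, the form of the endoplasmic reticulum (chromosome X, 155323920 to 155338454), had 17.2, 16.6, 17.4 and 20.4 CPM in controls and 22.7, 22.9, 26.5 and 28.7 CPM in knockouts. Every knockout was above every control, a rise of 1.41-fold (log2 fold change 0.49, adjusted p = 0.00806, SE 0.107). Prdx6, a one-cysteine peroxiredoxin with phospholipase activity (chromosome 1, 161240112 to 161251166), fell from 343 ± 27.5 to 284 ± 15.8 CPM (SD, n = 4 each), with no overlap. Its log2 fold change was -0.27 (adjusted p = 0.0257, SE 0.0777). The call of Prdx6 ended with upper quartile factors (edgeR adjusted p = 0.131), with library sizes alone (0.479), and without control 514 (0.0501), knockout 513 (0.0786), knockout 515 (0.0651) or knockout 516 (0.0596). Prdx3 (chromosome 19, 60864066 to 60874538) had 462, 470, 493 and 462 CPM in controls and 381, 352, 433 and 426 CPM in knockouts, again apart. Its log2 fold change was -0.24 (adjusted p = 0.0433, SE 0.0809), and this was the least steady call of the members. It ended under 12 of 16 alternatives, every other scaling and the removal of any library but knockout 515 among them, with edgeR adjusted p-values of 0.0532 to 0.113 for the removals that ended it. Prdx1 (-0.01, SE 0.0871), Prdx2 (0.02, SE 0.102) and Prdx5 (-0.14, SE 0.086) were not called, nor was Srxn1, which repairs overoxidized peroxiredoxins (-0.04, SE 0.098). Of the exon bases of Prdx5 28.3% lie opposite Trmt112, which was itself lower (-0.26).

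Among cytosolic and related glutathione transferases, 4 of 17 tested genes rose and 2 fell, a share of 35.3% called beside 34.4% of all genes. The theta class genes Gstt3, Gstt1, Gstt4 and Gstt2 lie in a row on chromosome 10. Gstt1 (75783813 to 75798584, minus strand) had 36.3, 36.8, 24.7 and 21.8 CPM in controls and 69.1, 63.6, 72.0 and 65.5 CPM in knockouts. The lowest knockout was far above the highest control, and the gene was 2.26-fold higher (log2 fold change 1.18, adjusted p = 0.00116, SE 0.166). Its neighbour Gstt3 (75774122 to 75781414), 2399 bases away, had 8.11, 9.02, 10.1 and 5.58 CPM in controls and 15.8, 16.3, 19.8 and 18.8 CPM in knockouts. It was 2.15-fold higher (log2 fold change 1.11, adjusted p = 0.00192, SE 0.176), again with no overlap, and 21.7% of its exon bases are shared with the gene model Gm20441. Gstt2 (75831845 to 75834881) had 33.3 to 38.2 CPM in controls and 31.7 to 44.3 CPM in knockouts, a log2 fold change of 0.13 (adjusted p = 0.361, SE 0.102). The difference between Gstt2 and its neighbours was not tested.

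The mu class genes lie together on chromosome 3, and 2 of 6 tested rose. Of all genes 34.4% were called, 15.4% as higher. Gstm5 (107895854 to 107898685) had 47.7, 44.5, 41.5 and 39.7 CPM in controls and 56.9, 52.0, 52.3 and 58.2 CPM in knockouts. The groups were apart, with a log2 fold change of 0.34 (adjusted p = 0.00974, SE 0.0772), and 16.7% of its exon bases lie opposite 4933431E20Rik. Gstm6 (107938848 to 107943749) was scarce, with 0.702, 1.84, 1.67 and 0.528 CPM in controls and 1.16, 3.27, 4.81 and 4.86 CPM in knockouts. Knockout 512 lay within the controls, and the log2 fold change was 1.58 (adjusted p = 0.0401, SE 0.512). The call of Gstm6 ended by limma-voom with sample weights (adjusted p = 0.0599), and without control 511 (0.0876), control 518 (0.077), knockout 513 (0.0745), knockout 515 (0.1) or knockout 516 (0.102). Gstm2 had 49.1, 47.3, 27.6 and 26.2 CPM in controls and 48.2 to 55.9 CPM in knockouts, so only controls 517 and 518 were clearly lower (log2 fold change 0.48, adjusted p = 0.101, SE 0.206). Without control 511 Gstm2 was called higher (0.63, edgeR adjusted p = 0.0414). Gstm1 (0.11), Gstm4 (0.26) and Gstm7 (-0.52, edgeR adjusted p = 0.094) were not called, and Gstm7 was called lower without knockout 512 (-0.75, edgeR adjusted p = 0.0181). The mu genes, like Gstp1 and Gstp2, are close paralogs, and how reads matching several of them were counted is not given in the sources used here.

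The largest fall of any tested member by log2 fold change was that of Gstz1, the zeta class enzyme that isomerizes maleylacetoacetate in tyrosine breakdown (chromosome 12, 87147165 to 87164723). It had 404, 430, 434 and 564 CPM in controls and 256, 156, 203 and 184 CPM in knockouts. The highest knockout, 512, was still far below the lowest control, and the gene was 2.29-fold lower (log2 fold change -1.20, adjusted p = 0.000953, SE 0.161). Of its exon bases 21.6% lie opposite Pomt2, whose own log2 fold change was -0.01. Gsto1, an omega class enzyme that reduces dehydroascorbate (chromosome 19, 47854989 to 47864788), had 105, 123, 130 and 131 CPM in controls and 90.2, 91.9, 87.2 and 98.6 CPM in knockouts. No knockout reached a control, and the log2 fold change was -0.41 (adjusted p = 0.00599, SE 0.0833). With library sizes alone Gsto1 was not called (-0.21, edgeR adjusted p = 0.112). Its neighbour Gsto2 was not called (-0.17, SE 0.184). Gstk1, of mitochondria and peroxisomes, had a log2 fold change of -0.18 (SE 0.0901) and was called lower without control 511 (-0.25, edgeR adjusted p = 0.0472). Gsta4, which conjugates the lipid aldehyde 4-hydroxynonenal, had -0.24 (SE 0.13), and Gsta3 (-0.07), Gstp1 (0.13) and Gstp2 (0.01) were not called.

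Of the 3 membrane-bound transferases, 1 rose, a share of 33.3% called beside 34.4% of all genes. Mgst2, which can join glutathione to leukotriene A4 (chromosome 3, 51661193 to 51682675), had 5.30, 2.59, 4.05 and 2.71 CPM in controls and 9.30, 6.54, 11.1 and 10.8 CPM in knockouts. Every knockout exceeded every control, and the gene was 2.57-fold higher (log2 fold change 1.36, adjusted p = 0.00454, SE 0.261). Its far more abundant relative Mgst1 had 524, 527, 599 and 670 CPM in controls and 422, 433, 538 and 610 CPM in knockouts (-0.21, SE 0.136, edgeR adjusted p = 0.253), and Mgst3 was not called either (0.12, SE 0.242).

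Nqo1, the quinone reductase often used as a readout of Nrf2, rose although its level was low (chromosome 8, 107388225 to 107403205). It had 2.42, 1.84, 2.38 and 2.94 CPM in controls and 6.66, 5.79, 6.67 and 5.35 CPM in knockouts. The groups were well apart, 2.55-fold in size (log2 fold change 1.35, adjusted p = 0.000718, SE 0.17). Hmox1, the inducible heme oxygenase and another such readout, had 10.4 to 11.6 CPM in controls and 11.2, 11.7, 12.9 and 15.9 CPM in knockouts. Only knockouts 513, 515 and 516 were above all controls, and its log2 fold change was 0.22 (adjusted p = 0.191, SE 0.124). Hmox2, the constitutive form, had -0.08 (SE 0.0973), and 40.2% of its exon bases lie opposite Cdip1. Cdip1 was more abundant, with means of 275 CPM in controls and 248 CPM in knockouts (log2 fold change -0.15), beside 98.8 and 93.7 CPM for Hmox2. The part of Cdip1 reads in the counts of Hmox2 was not tested. In a list of 17 tested genes known as targets of Nrf2 outside the members, 4 were higher and 1 lower (median 0.0864), a share of 29.4% called, below the 34.4% of all genes. That list was not complete, since genes of NADPH supply, cysteine supply and other antioxidant defence were held in lists of their own. The aldo-keto reductases Akr1b10 (14.4 ± 0.82 to 29.5 ± 2.70 CPM, SD, n = 4 each) and Akr1b8 rose by 1.03 and 1.10 on the log2 scale, and the carbonyl reductase Cbr3 rose by 1.29, while the aldehyde oxidase Aox1 fell by 0.40. The call of Aox1 ended with library sizes alone (edgeR adjusted p = 0.116). The fourth higher gene, named after its value was seen, was Trim16 (0.58).

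**Figure D3:**
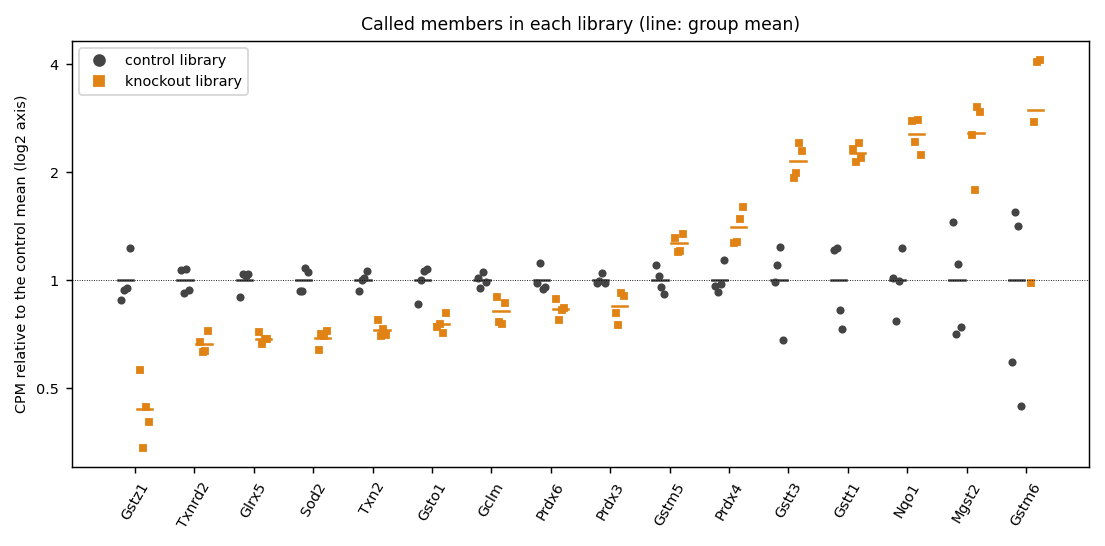
CPM of each called member in each library, divided by the mean of the 4 controls, on a log2 axis, with circles for controls, squares for knockouts and a line at each group mean. In 15 of the 16 called members the squares and circles do not overlap, the exception being Gstm6.

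Of 8 members listed as mitochondrial, 5 were called lower and 3 did not pass. The list (Sod2, Prdx3, Prdx5, Txn2, Txnrd2, Glrx2, Glrx5 and Gstk1) had log2 fold changes of -0.59 to -0.14 and a median of -0.353. Its share of calls was 62.5%, beside 34.4% of all genes tested called and 18.9% called lower. Under several alternatives, such as a minimum count of 30 or relative log expression factors, 4 of the 8 were lower, without Prdx3. Of the 45 tested members outside it, 4 were lower and 7 higher, with a median of -0.0549. The lists were set with earlier results of these data known, and no test compares them. The mitochondrial list was written by hand. Prdx5 and Gstk1 also act outside mitochondria, and members outside the list may be mitochondrial in part. Its share of calls therefore depends on which members it holds. With library sizes alone 4 of the 8 were lower (median -0.157), and Prdx5, Glrx2 and Gstk1 had log2 fold changes of 0.06, 0.03 and 0.01. Of 5 tested members that are secreted or in the endoplasmic reticulum, Prdx4 was the 1 higher, a share of 20.0% called. With library sizes alone or upper quartile factors Gpx7 and Gpx8 were called higher as well.

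**Figure D4:**
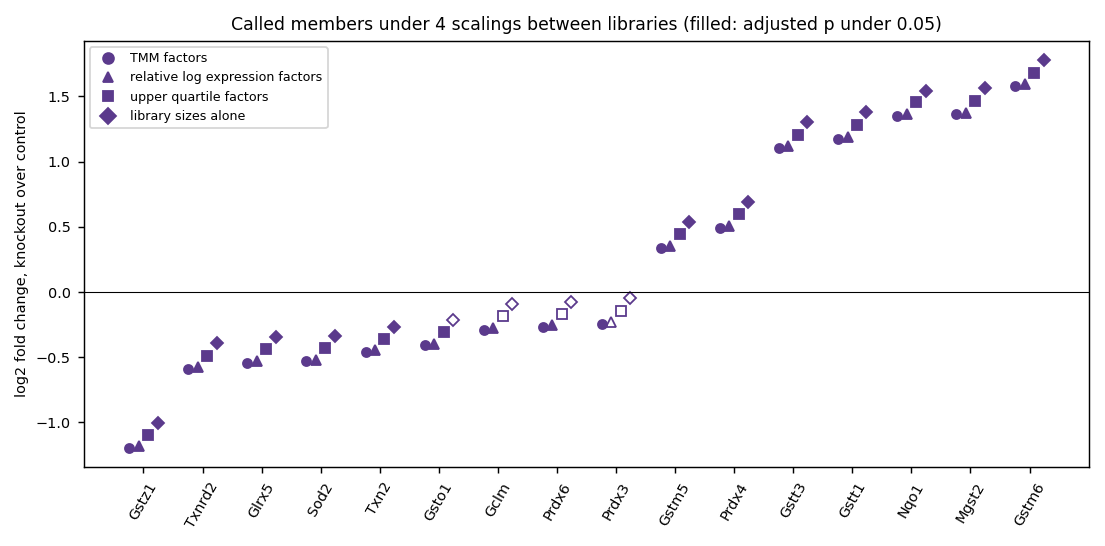
Log2 fold change of the 16 called members with each of 4 scalings (library sizes alone, upper quartile, relative log expression and TMM), filled where the adjusted p is under 0.05. All 16 keep their sign under the 4 scalings, and the open symbols belong to Gsto1, Gclm, Prdx6 and Prdx3.

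Genes around these pathways were read from lists of 121 genes outside the members, of which 116 were tested, 23 called higher and 24 lower. The share called was 40.5%, beside 34.4% of all genes tested. The list for supply of NADPH, the electron source of both systems, had the largest share of calls among these lists, 76.9%. In it 8 of 13 genes were lower and 2 higher (median -0.516). The lower genes were Pgls, Pgd, Tkt, Taldo1, Idh1, Nadk, Nadk2 and Aldh1l1, while G6pdx, Me1 and Idh2 were not called. Pgd, an enzyme of the pentose phosphate pathway, had 964, 539, 896 and 834 CPM in controls and 297, 268, 331 and 387 CPM in knockouts. All knockouts were below all controls (log2 fold change -1.33, adjusted p = 0.00105, SE 0.185). Nadk, which makes NADP, fell by 0.54, Idh1, the cytosolic isocitrate dehydrogenase, fell by 0.52 and Aldh1l1, a folate enzyme that yields NADPH, fell by 0.83. The 2 higher genes, named after their values were seen, were Mthfd2 (0.79) and Nnt (1.26, edgeR adjusted p = 0.042), the mitochondrial transhydrogenase. Nnt had 16.6, 8.22, 5.90 and 16.6 CPM in controls and 48.5, 20.6, 16.3 and 28.4 CPM in knockouts, so its range in controls reached that of the knockouts. The call of Nnt ended by limma-voom with sample weights (adjusted p = 0.0555) and without control 514 (0.0863), control 517 (0.0847), knockout 512 (0.11), knockout 513 (0.0551) or knockout 516 (0.082). With library sizes alone 6 of the 13 were lower, with a median of -0.319.

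In cysteine supply and glutathione breakdown 3 of 14 tested genes were higher and 3 lower (median 0.192), 42.9% called beside 34.4% of all genes. Chac2 and Oplah, of glutathione breakdown, fell by 0.79 and 0.74 on the log2 scale, while Anpep, an aminopeptidase, rose by 0.37 and Chac1, a stress-induced relative of Chac2, had a log2 fold change of 1.46 with overlapping groups. The call of Chac1 ended without knockout 513 (edgeR adjusted p = 0.0523) and by limma-voom with sample weights (adjusted p = 0.0836). Of 25 other antioxidant genes 4 were higher and 5 lower (median -0.0587), 36.0% called and so near the share of all genes. Cat, the catalase of peroxisomes, had 1049, 923, 1109 and 1077 CPM in controls and 649, 636, 631 and 695 CPM in knockouts. No knockout came near a control (log2 fold change -0.67, adjusted p = 0.000544, SE 0.0791). Ucp2, a mitochondrial carrier, rose by 1.99, the selenoprotein gene Sepw1 rose by 0.60 and another, Selt, fell by 0.32, the last not called with library sizes alone (edgeR adjusted p = 0.162).

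Of 18 thioredoxin-fold proteins and relatives, 4 were higher and 4 lower (median -0.104), 44.4% called beside 34.4% of all genes. Txndc16 rose by 0.94 and the nucleoredoxin gene Nxn rose by 0.47. Txndc15 and Txnl4b had log2 fold changes of -0.34 each and were called lower, calls that ended with library sizes alone (edgeR adjusted p = 0.185 and 0.234) and, for Txnl4b, with upper quartile factors (0.0637). Txnip, the inhibitor of thioredoxin, was also higher (0.58, edgeR adjusted p = 0.0232) and is named after its value was seen. That call ended without control 514 (edgeR adjusted p = 0.0513), control 517 (0.0542), knockout 512 (0.0561), knockout 515 (0.0592) or knockout 516 (0.0506). Gm15441 lies opposite 19.5% of the exon bases of Txnip. Of 18 other genes of glutathione use and conjugate export 3 were higher and 2 lower (median 0.094), 27.8% called and so below the share of all genes. Clic1, a protein of the glutathione transferase fold, rose by 1.03 and Gdap1 rose by 1.53 from a level of 0.413 CPM, while Ptges2 fell by 0.51 and Hagh, the second glyoxalase, fell by 0.42. The call of Hagh ended with library sizes alone (edgeR adjusted p = 0.0703). That scaling shifted each of these lists upward. It gave 6 higher and 2 lower for cysteine supply, 8 and 2 for the other antioxidant genes, 6 and 0 for the thioredoxin-fold genes, 6 and 1 for the other genes of glutathione use and 8 and 0 for the other targets of Nrf2. The median turned positive for the antioxidant list (0.139) and the thioredoxin-fold list (0.0947).

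The authors' deposited table gave 13 members with an FDR under 0.05, 6 higher and 7 lower. Of these, 12 were called here in the same direction, and the other was Nfe2l2. Gclm, Gstm5, Prdx3 and Prdx6 were called here but not in the authors' deposited table.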

How the data were processed

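Reads from 8 samples of mouse brown adipose tissue were aligned to mm10 with TopHat2 version 2, per the submitters' processing notes. The estimated counts deposited by the authors came from HOMER's analyzeRepeats.pl on RefSeq gene models, unadjusted, over exons and both strands, per the file headers, so overlapping genes on opposite strands cannot be told apart. They are multiples of 0.5 (36.9% not whole) and were rounded. The authors' log2 fold change and FDR, an adjusted p-value, were read from their deposited comparison. Of 30521 rows, 829 named no gene (0.0608% to 0.0824% of counts per library) and were left out.

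Genes passing filterByExpr (minimum count 10) were tested with edgeR 4.0.16 (R 4.3.3) by the two-sided quasi-likelihood test, with TMM factors, Benjamini-Hochberg adjustment over all genes tested and a threshold of 0.05. The standard error is the log2 fold change over the square root of F, an approximation. Alternatives were DESeq2 1.42.0, limma 3.58.1 (voom with sample weights), other scalings, filters, transcript rows and the removal of each library. Tested on simulated data of this comparison (14097 genes), the test recovered 22.4% of genes changed 1.5-fold and 79.6% changed 2-fold. The simulation gave every gene the same spread and changed few genes, while 34.4% of all genes passed in the data. Its shares are therefore not the power of this comparison. Members and lists were chosen with earlier results of these data known. Named members were those called without overlap at a mean of at least 5 CPM, up to 10 in each direction, and a set list, with the other called members added, and from each pathway list the 4 smallest p. Of 191 list entries, 190 matched, 5 of them by a RefSeq synonym. Exon overlaps are from GENCODE M21. No pair of replicates agreed within sampling noise.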

Additional observations from a re-analysis of the deposited data

Results flagged for a closer look

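In 6 of 106 groups of 4 libraries, 1 library lay far from the other 3 by Dixon's criterion, where chance flags about 1 in 20. Nfe2l2 had 238 CPM in control 518, beside 96.4 to 117 CPM in the other controls. It was also low in knockout 512, at 74.4 CPM beside 92.0 to 93.3 CPM. Knockout 512 was likewise lowest for Gclc, at 31.8 CPM beside 34.2 to 34.5 CPM, and highest for Mgst3, at 99.3 CPM beside 67.4 to 71.0 CPM. Control 511 was lowest for Glrx5, at 112 CPM beside 129 to 130 CPM. Knockout 513 was lowest for Gsta3, at 3.54 CPM beside 9.15 to 10.0 CPM.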

How the results depend on the processing

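Of the 16 called members, 11 kept their call under all 16 alternatives, and Gclm, Gstm6, Gsto1, Prdx3 and Prdx6 lost it under at least 1. None of the 16 changed direction, while 20 members without a call did under at least 1 alternative. The cause of these shifts was not tested.

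With library sizes alone, 13 members were higher and 5 lower, 4077 genes of all were higher and 930 lower, the members' median was 0.116 and that of all genes 0.186. With upper quartile factors 1625 genes of all were lower, and the medians were 0.0228 and 0.0903. The median of all genes was 0.00149 with relative log expression factors, 0.00424 without the filter on low counts, 0.00511 with a minimum count of 30 and 0.0217 by DESeq2, and the members' median was -0.135 by limma-voom with sample weights. Leaving out 1 library at a time gave medians of all genes of -0.0166 to 0.0116, 6 to 7 higher members and 6 to 11 lower members. The members' median then lay between -0.123 (without control 517) and -0.0638 (without knockout 513).

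Log2 fold changes that turned sign with library sizes alone were Gclc 0.19, Glrx2 0.0267, Glrx3 1.155e-06, Gpx1 0.12, Gsr 0.14, Gsta3 0.12, Gstk1 0.0125, Gsto2 0.0288, Hmox2 0.12, Keap1 0.0756, Prdx1 0.19, Prdx5 0.0581, Sod3 0.0700, Srxn1 0.16, Txn1 0.10 and Txnrd3 0.12. With upper quartile factors they were Gclc 0.0893, Gpx1 0.02, Gsr 0.0488, Gsta3 0.0354, Hmox2 0.0249, Prdx1 0.10, Srxn1 0.0675, Txn1 0.00394 and Txnrd3 0.0233. With relative log expression factors they were Gclc 0.000778 and Prdx1 0.00798, with a minimum count of 30 Gclc 0.0229 and Prdx1 0.03, by DESeq2 Prdx1 0.00242, by limma-voom Srxn1 0.00274, and without the filter Gstp2 -0.00335. Leaving out 1 library at a time gave Gclc -0.063 to 0.0532, Glrx -0.561 to 0.0142, Gsr -0.139 to 0.00317, Gsta3 -0.323 to 0.176, Gstp2 -0.277 to 0.206, Mgst3 -0.0719 to 0.271, Prdx1 -0.0546 to 0.0469, Prdx2 -0.0376 to 0.0948, Sod3 -0.267 to 0.00968 and Srxn1 -0.123 to 0.0409. The longest transcript row changed no call of a member.

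No paired analysis was possible because the 2 groups share no replicate number. With 4 libraries a group and the same spread for every gene, the simulated test missed most changes of 1.5-fold. That recovery does not carry over to these data, where smaller changes were called, such as Gstm5 at 1.27-fold. Members without a call still cannot be taken as unchanged, since a missed threshold does not show equality.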
